A study of Homo sapiens with 4 samples.

Results

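Of the 33640 genes counted in nuclei of human H9 pluripotent stem cells, 59 carry symbols of the machinery for protein entry into, folding in and early export from the endoplasmic reticulum (ER). The rule reads only the symbol and takes the genes named SEC, SSR, SPCS, SRP, PDIA or TMED with a number, together with CALR and CANX. No value of a gene enters it. Not all of them act in translocation or folding. The SEC numbers also take in the COPII coat (SEC13, SEC16, SEC23, SEC24, SEC31) and the SEC22 genes. The TMED genes encode p24 cargo receptors, and the SEC14L genes encode cytosolic lipid-binding proteins that share only the SEC prefix.

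The RNA came from nuclei of H9, an established line of primed human embryonic stem cells kept undifferentiated in a defined medium on a basement membrane extract, which were fixed lightly with formaldehyde, and the whole pool of nuclei was read in bulk. A poly-T primer captured polyadenylated RNA by reverse transcription (RT) inside the nuclei, either after (Post) or before (Pre) the Tn5 tagmentation step that marks chromatin. In the RNA and DNA libraries the same nuclei were also profiled for the histone marks H3K27me3 and H3K27ac, and in the RNA only libraries they were not. The 4 libraries are thus Post, RNA and DNA, then Pre, RNA and DNA, then Post, RNA only, and Pre, RNA only, with 1 library each and no treatment of the cells. The purpose was to see how the order of the steps and the added chromatin profiling bear on the transcriptome. The sources used here did not give what tagmentation the RNA only nuclei received.

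Proteins bound for secretion or for membranes are recognised on the ribosome by the signal recognition particle (SRP), handed to the SEC61 channel in the ER membrane, trimmed by signal peptidase and folded by lectin chaperones and protein disulfide isomerases. Folded cargo then leaves in COPII vesicles, while p24 proteins select cargo and shuttle between ER and Golgi. Every cell uses this machinery. When unfolded proteins gather in the ER the unfolded protein response raises the transcription of many of its genes through short promoter elements, among them the ER stress response element (ERSE) and the unfolded protein response element (UPRE).

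Totals were 10089552 deduplicated counts in Post and 8960724 in Pre with RNA and DNA, and 6368721 in Post and 9379073 in Pre with RNA only. The Post, RNA only library, the shallowest, stood apart. A group of 6 clone-named genes of the FP236383 and FP671120 clones held 15.8% of counts in Post and 10.7% in Pre with RNA and DNA, against 34.8% in Post and 12.3% in Pre with RNA only. Levels below are in RPM, the count scaled to a common library total. A difference between 2 libraries is given as a relative log2 ratio. This is the log2 ratio of RPM after adding 1 RPM to both, less the median of that ratio over all 11564 genes averaging 10 RPM or more. A relative ratio of 0 therefore stands for the typical gene. That median was -0.09 for Post over Pre with RNA and DNA, -0.44 for Post over Pre with RNA only, 0.38 for RNA and DNA over RNA only in Post, and 0.03 in Pre. With 1 library per condition no comparison of 2 libraries could be tested. A model of both factors over all 4 libraries is given after the comparisons. The 95% intervals given in brackets after a ratio are exact intervals for counting error only. A gene was called higher or lower when its relative ratio was at least 1.5-fold. All 12 pluripotent markers examined were above 10 RPM on average, with L1TD1 at 882 RPM, DNMT3B at 498 RPM, POU5F1 at 174 RPM and SOX2 at 113 RPM. Of 15 markers of other cell types measured only TUBB3 (23.2 RPM) was, and COL1A1 (9.84 RPM) came next. In these bulk libraries fewer cells of a type and less RNA per cell cannot be told apart.

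All 59 genes had at least 1 count in every library, and 49 reached the mean of 10 RPM used for the ratios. SEC11C, at 10.2 RPM, was just inside that limit and SEC14L5, at 9.38 RPM, just outside it. The lowest were PDIA2, an isomerase known mainly from the pancreas, SEC14L3 and SEC14L4, each with a mean below 1 RPM. Together the 59 genes held 0.298% of counts in Post and 0.341% in Pre with RNA and DNA, and 0.266% in Post and 0.324% in Pre with RNA only. Once the FP236383 and FP671120 genes were taken out of the totals, the shares were 0.354% in Post and 0.382% in Pre with RNA and DNA, and 0.407% in Post and 0.369% in Pre with RNA only. The Post, RNA only library was therefore the lowest by the first measure and the highest by the second.

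**Figure D1:**
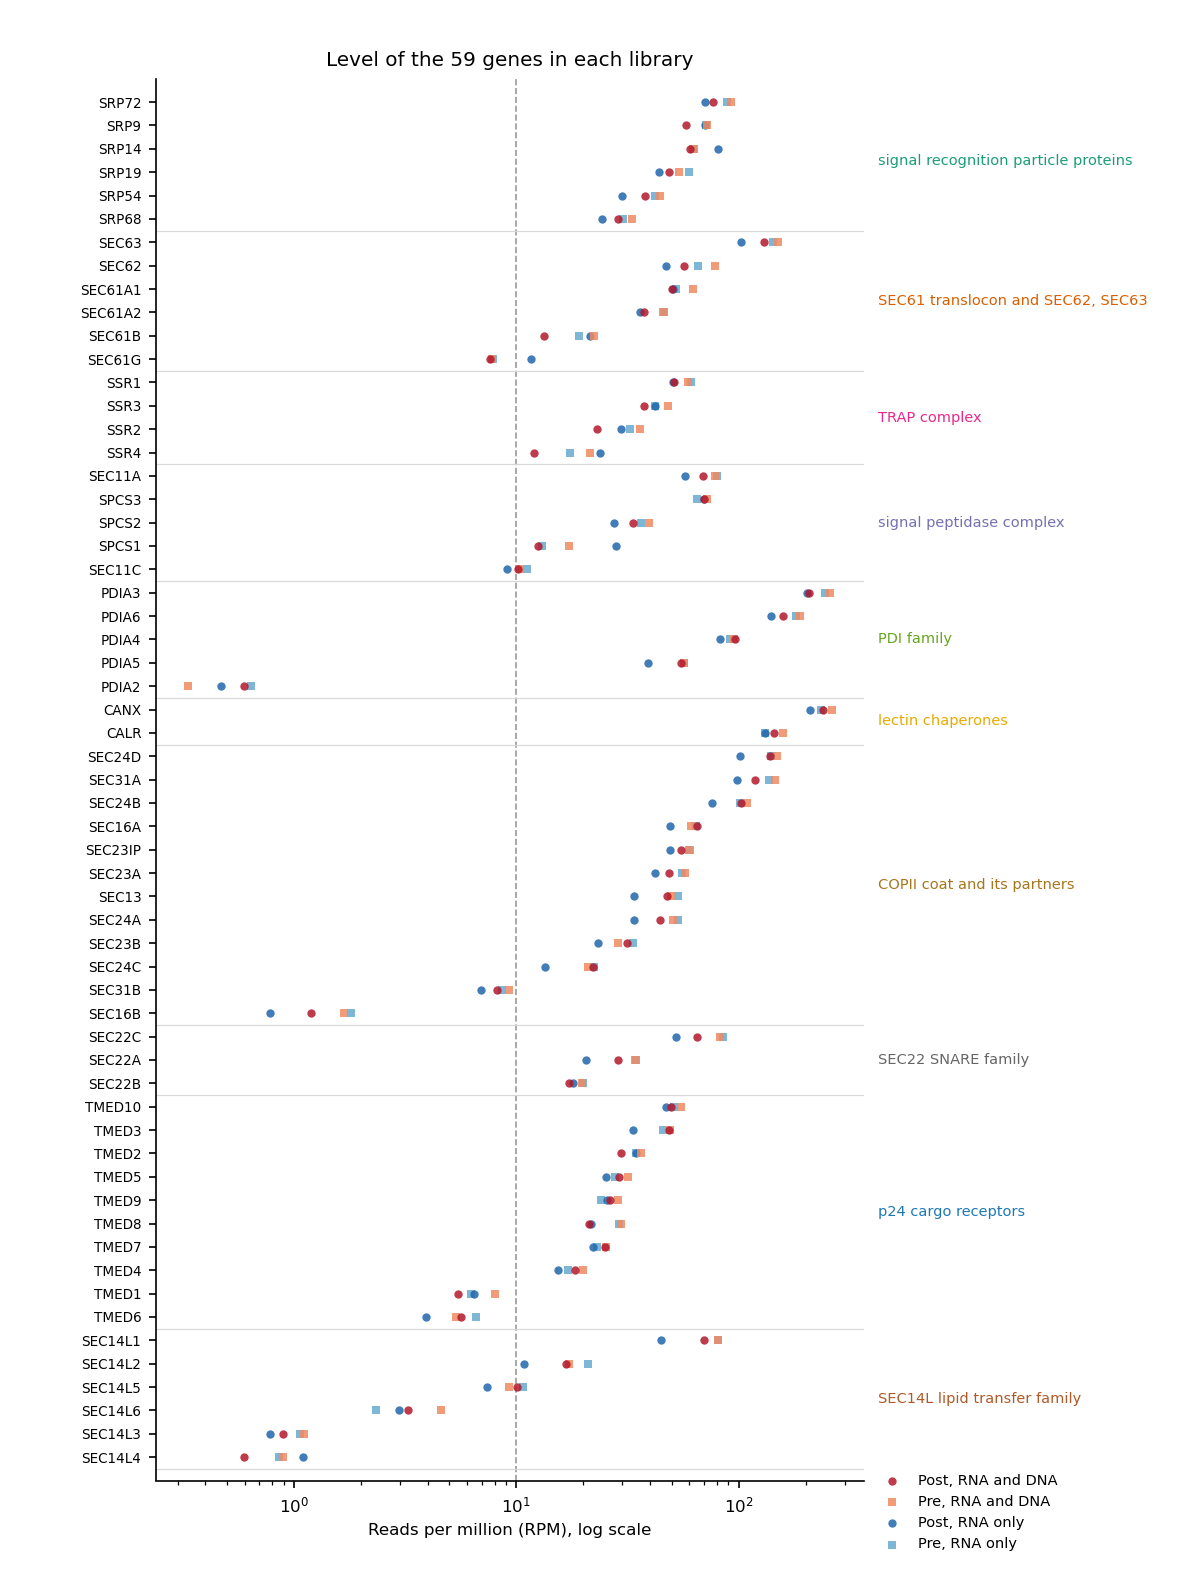
Level of each of the 59 genes in the 4 libraries, in RPM on a log axis, with genes grouped by role and ordered within a role by mean level. The dashed line marks the 10 RPM limit, which 49 genes reached on average, and the Post, RNA only points (blue circles) lie lowest for most genes of the COPII coat but highest for SPCS1, SRP14, SSR4 and SEC61G.

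All 59 genes are protein-coding in the GENCODE annotation of GRCh38 and lie on 20 chromosomes. The annotated mature transcripts measured 0.425 to 9.66 kb with a median of 3.45 kb, and the genes spanned 3.49 to 158 kb with a median of 30.8 kb. Per kb of mature transcript, CALR (74.2 RPM per kb, mean of the 4 libraries), PDIA6 (73.3), SEC11A (65.9), PDIA3 (61.9) and SRP14 (59.6) had the 5 highest values, and SEC16B and PDIA2 (0.303 RPM per kb each) the lowest. Dividing by length assumes that counts grow with it, which need not hold with poly-T priming and was not tested. Without the division SEC11A (71.1 RPM) lay below PDIA3 (228 RPM). Whether reads in introns were counted was not given in the sources used here. Some of the genes share ground. SEC14L2, SEC14L3, SEC14L4 and SEC14L6 sit side by side on chromosome 22. The annotated ends of PDIA5 (chr3:123067025-123225227) and SEC22A (chr3:123201927-123274136) overlap. In all, 40 genes overlap an annotated gene on the other strand, and 15 have a pseudogene named after them. Reads from such places may be shared or lost in counting.

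Promoter sequence was at hand for 54 of the 59 genes (RefSeq, GRCh38.p14, 250 bases before to 50 after each start). The elements of the unfolded protein response found in it are shown because the choice by symbol did not use them. Whether the 54 genes share a regulation was not tested. The ERSE, which is CCAAT and CCACG at the 2 ends of 19 bases, was searched on both strands. It was found for 3 of 54 genes (5.56%), namely CALR, CANX and PDIA6, against 0.0916% of 27305 genes with a promoter and 0.167% of the 8408 among them with at least 10 RPM. Outside the set it was found for 4 of 20 ER chaperones, 1 of 19 insertion genes and 1 of 13 unfolded protein response genes. It was found in none of 13 glycosylation genes, 14 genes of ER-associated degradation and 27 COPI coat, cargo receptor and COPII GTPase genes. The windows read, 5′ to 3′ on the strand of the gene and with the element in capitals (in CALR it lies on the opposite strand):
CALR ERSE: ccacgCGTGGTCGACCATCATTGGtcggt
CANX ERSE: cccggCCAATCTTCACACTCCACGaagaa
PDIA6 ERSE: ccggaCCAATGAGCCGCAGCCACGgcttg
The CALR window (chr19:12938379-12938407, plus strand) lies upstream of the annotated gene, the CANX window (chr5:179698773-179698801, plus strand) falls in the non-coding part of an exon, and the PDIA6 window (chr2:10812848-10812876, minus strand) lies in an intron of the annotated gene, upstream of a RefSeq start within it. The related ERSE-II, ATTGG and CCACG with 1 base between, was found in none of the 54.

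The UPRE core, TGACGTGG on either strand, was found for 8 of 54 genes (14.8%), against 0.927% of all genes with a promoter and 1.32% of those with at least 10 RPM. They were SEC16A, SEC16B, SEC23A, SEC24A, SEC62, SRP19, SSR3 and SSR4, and none of them also held the ERSE. The element was about as frequent in 3 lists of other ER genes, at 5 of 27 COPI coat, cargo receptor and COPII GTPase genes (18.5%), 3 of 20 ER chaperones (15%) and 2 of 14 genes of ER-associated degradation (14.3%), and was found in none of 13 glycosylation, 19 insertion and 13 unfolded protein response genes. This motif was added after the sequences were seen. Windows of 4 genes from different steps of the pathway read:
SRP19 UPRE core: aagtcttcatgCCACGTCAgagactagaga
SEC62 UPRE core: ccctcctcgctCCACGTCAgagggaaccgg
SSR4 UPRE core: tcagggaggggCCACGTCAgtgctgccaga
SEC24A UPRE core: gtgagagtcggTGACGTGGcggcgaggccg
The windows are at chr5:112861164-112861193, plus strand (SRP19), chr3:169966779-169966808, plus strand (SEC62), chrX:153794528-153794557, plus strand (SSR4) and chr5:134648595-134648624, plus strand (SEC24A). The first 3 touch the non-coding part of an exon of their gene, and the SEC24A window lies outside SEC24A and inside the annotated span of its neighbour SAR1B, which encodes the small GTPase that starts the COPII coat. A match is a description of the letters only. As set out below, no ERSE holder was called in any comparison, and of the UPRE core holders only SSR4 was. Of all genes, 0.0605% to 7.63% were called, depending on comparison and direction. With so few holders, these counts give no result about the elements.

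The first question was how levels compared between RT after and before tagmentation when chromatin was profiled in the same nuclei. With RNA and DNA, none of the 49 genes was higher in Post than in Pre by 1.5-fold (1.1% of all genes were) and 2 were lower, SSR4 and SEC61B, where 2.02% of all genes were lower. The median of the 49 was -0.10, with 13 genes above the typical gene and 36 below, where 50% of all genes lie above it by construction. Counting-error intervals lay wholly below 0 for 14 of the 49 and wholly above for 1, SEC16A, against 19.7% and 17.7% of all genes.

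The second question was the same without chromatin profiling. With RNA only, 4 genes were higher in Post than in Pre by 1.5-fold, SPCS1, SSR4, SRP14 and SEC61B, where 5.26% of all genes were, and none was lower (2.01% of all genes). The median was 0.11, or -0.33 as a plain log2 ratio with no centring on the typical gene, with 34 genes above the typical gene and 15 below, and intervals lay wholly above 0 for 18 and wholly below for 4, against 18.8% and 21.4% of all genes. No library is shared between these 2 pairs. Across the 49 genes the 2 Post over Pre ratios had a Pearson r of -0.36 and a Spearman rho of -0.20, given as a description since genes of 1 library share its depth and composition, and over all 11564 genes r was 0.02. Of the 49, 26 were below the typical gene in the RNA and DNA pair and above it in the RNA only pair, as were 25.6% of all genes. For 8 the intervals lay wholly on those sides (5.84% of all genes), and 2, SSR4 and SEC61B, were past 1.5-fold both ways (0.7% of all genes). None was past 1.5-fold in 1 direction in both pairs.

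**Figure D2:**
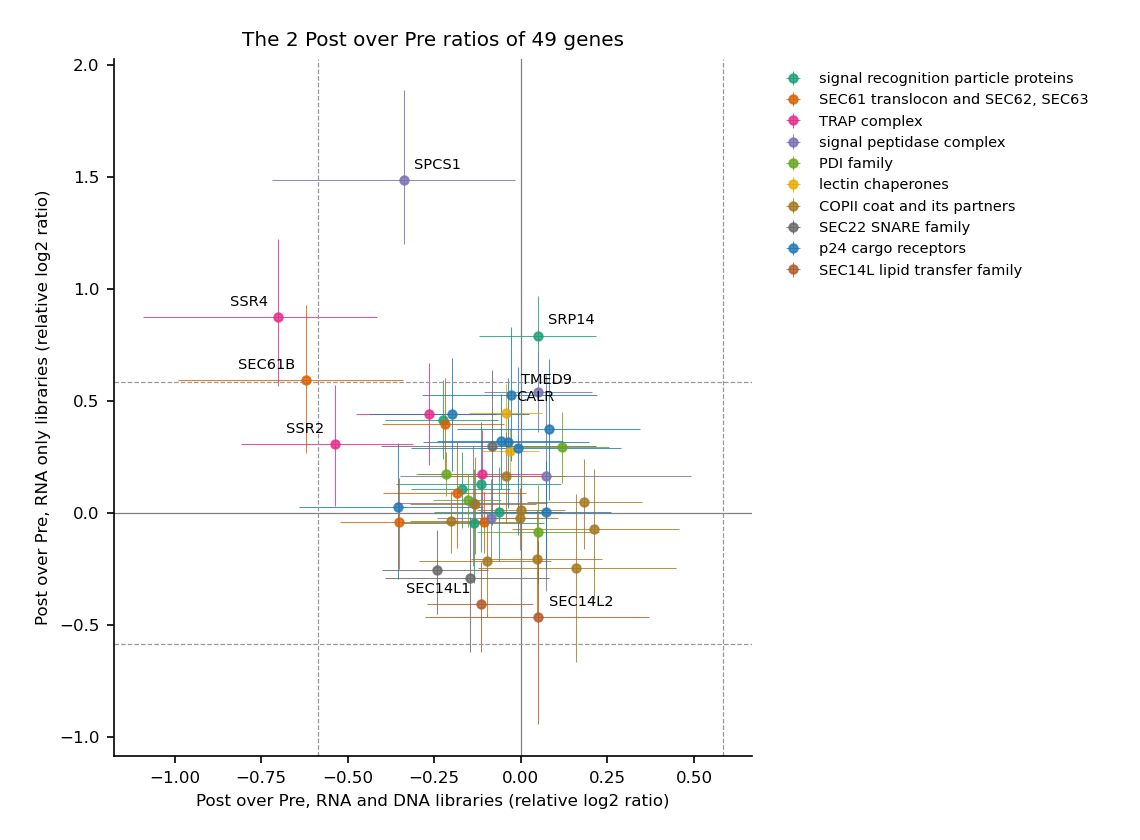
Relative log2 ratio of Post over Pre in the RNA only libraries (vertical) against that in the RNA and DNA libraries (horizontal) for the 49 genes, with bars for the 95% counting-error intervals and dashed lines at 1.5-fold. SSR4 and SEC61B lie beyond the dashed lines in the upper left, and SPCS1 (1.49) and SRP14 (0.79) beyond the upper line alone.

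The third question was how levels with chromatin profiling compared with those without it at each order of steps. In Post, 7 of the 49 genes were lower with RNA and DNA than with RNA only, namely SPCS1, SSR4, SEC61B, SRP14, SSR2, SRP9 and TMED2, where 7.63% of all genes were lower, and none was higher (1.34%). The median was -0.19, with 12 genes above the typical gene and 37 below. Intervals lay wholly below 0 for 23 and wholly above for 1, SEC14L1, against 20.4% and 20.7% of all genes. In Pre no gene was called in either direction (0.0605% of all genes were higher and 0.156% lower), and the median was 0.04, with 29 above and 20 below. Intervals lay wholly above 0 for 5 and wholly below for 2, against 7.58% and 6.96% of all genes. Of the 49, 26 were below the typical gene in Post and above it in Pre (31.2% of all genes), 4 with both intervals on those sides (4.3%) and none past 1.5-fold both ways (0.0173%). The highest ratios in Post were those of SEC24C (0.29), SEC14L1 (0.26), SEC14L2 (0.21), TMED3 (0.14) and SEC13 (0.11), which encodes a subunit of both the COPII coat and the nuclear pore. In Pre the extremes were SPCS1 (0.35), SSR4 (0.27), CALR (0.25), SEC61A1 (0.24) and TMED9 (0.22) at the upper end and SEC14L2 (-0.30), SEC23B (-0.24), SRP19 (-0.16), SEC13 (-0.13) and SEC11C (-0.13) at the lower end. The Post, RNA only library enters both this Post comparison and the RNA only comparison above, so these values are not independent of each other. A model with both factors, fitted to all 4 libraries and left with 1 residual degree of freedom, called none of the 49 genes for the order of RT or for chromatin profiling, either in edgeR's quasi-likelihood test or in DESeq2, and none reached an unadjusted p below 0.05 in either tool. Over all genes edgeR called 2 for the order of RT and none for chromatin profiling, and DESeq2 called 26 and 1. A change that goes opposite ways in the 2 pairs of a factor, as for SSR4 and SEC61B, enters the residual of the model with both factors. The lack of calls in that model therefore says nothing about such genes. Without centring the median for RNA and DNA over RNA only in Post was 0.19, so that the direction of a family given here holds relative to the typical gene.

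**Figure D3:**
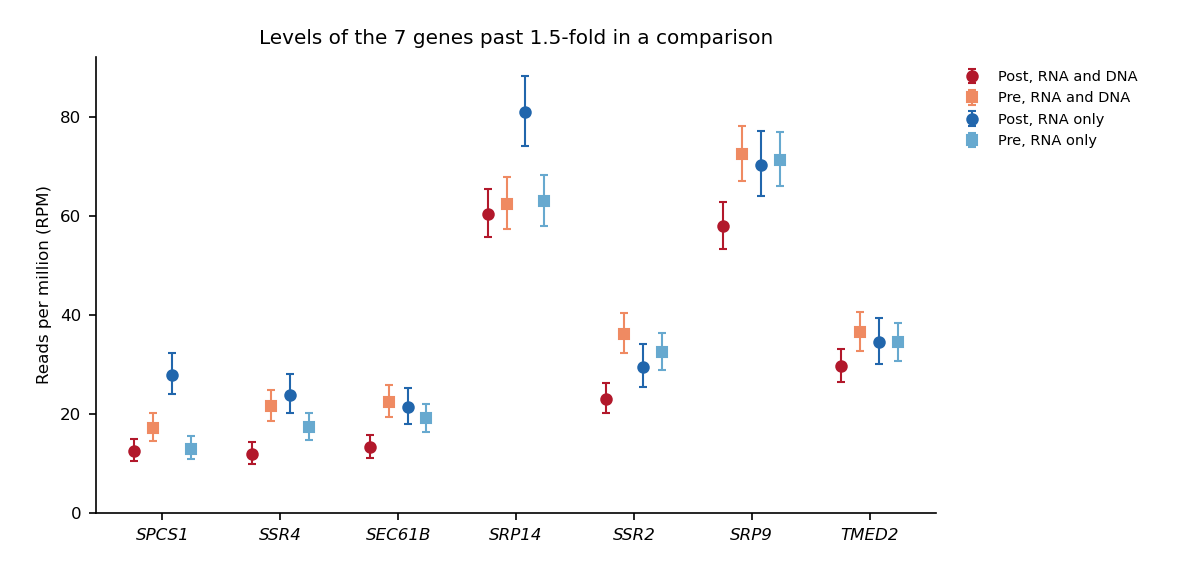
Levels of the 7 genes called in at least 1 comparison, in RPM, with 95% counting-error bars, for the 4 libraries. SPCS1 and SRP14 are highest in Post, RNA only, whereas SSR2, SRP9 and TMED2 are lowest in Post, RNA and DNA.

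Targeting comes first in the pathway, and 6 SRP proteins were measured, all above the limit. SRP9 and SRP14 form the small heterodimer that holds the ribosome during targeting. SRP14 (chr15:40035690-40039181) had 60.5 and 62.4 RPM in Post and Pre with RNA and DNA, and 80.9 and 63.0 RPM in Post and Pre with RNA only. Only Post, RNA only stood out, and the relative log2 ratio of Post over Pre was 0.05 (-0.12 to 0.22) with RNA and DNA and 0.79 (0.62 to 0.97) with RNA only. SRP9 had 57.9 and 72.4 RPM in Post and Pre with RNA and DNA, and 70.3 and 71.3 RPM in Post and Pre with RNA only. Post, RNA and DNA was the low one, at -0.65 (-0.84 to -0.48) relative to Post, RNA only. SRP72, which with SRP68 forms the large heterodimer, had 77.0 and 92.7 RPM in Post and Pre with RNA and DNA, and 70.3 and 88.6 RPM in Post and Pre with RNA only. Both Post libraries lay below both Pre libraries, and Post over Pre was -0.17 (-0.32 to -0.03) and 0.11 (-0.06 to 0.27). SRP54, the GTPase that binds the signal peptide, gave -0.13 and -0.04 for Post over Pre with RNA and DNA and with RNA only, and SRP19, which helps assemble the particle, -0.06 and 0.01.

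Of the channel genes, the pore-forming subunit SEC61A1 had 50.2 and 62.6 RPM in Post and Pre with RNA and DNA, and 50.6 and 52.0 RPM in Post and Pre with RNA only. It was highest in Pre, RNA and DNA and nearly level in the others. This gave -0.22 (-0.40 to -0.05) and 0.40 (0.19 to 0.60) for Post over Pre with RNA and DNA and with RNA only. The small tail-anchored subunit SEC61B (chr9:99222064-99230615) had 13.3 and 22.4 RPM in Post and Pre with RNA and DNA, and 21.4 and 19.1 RPM in Post and Pre with RNA only. The low value was that of Post, RNA and DNA, and Post over Pre was -0.62 (-0.99 to -0.34) with RNA and DNA and 0.59 (0.27 to 0.93) with RNA only. The third subunit, SEC61G, stayed below the 10 RPM limit and had 7.63 and 7.81 RPM in Post and Pre with RNA and DNA, and 11.6 and 7.89 RPM in Post and Pre with RNA only. These are 77 and 70 counts in Post and Pre with RNA and DNA and 74 in both RNA only libraries. SEC63, the membrane partner that brings the chaperone BiP to the channel, had 130.2 and 149.7 RPM in Post and Pre with RNA and DNA, and 102 and 143 RPM in Post and Pre with RNA only. Its relative ratio stayed between -0.11 and 0.04 in the 4 comparisons. SEC62, which works beside SEC63, had 56.9 and 77.9 RPM in Post and Pre with RNA and DNA, and 47.1 and 65.9 RPM in Post and Pre with RNA only. It was highest in Pre, RNA and DNA, with -0.35 (-0.52 to -0.20) for Post over Pre there and -0.04 (-0.25 to 0.16) with RNA only. The paralogue SEC61A2 gave -0.18 and 0.09.

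The translocon-associated protein (TRAP) complex, encoded by SSR1 to SSR4, sits beside the channel and aids the entry of some signal peptides. All 4 genes were below the typical gene for Post over Pre with RNA and DNA (median -0.40), above it with RNA only (median 0.38), and below it for RNA and DNA over RNA only in Post (median -0.63). Of all genes, 25.6% were below in the first of these and above in the second. All genes spanning under 10 kb had medians of -0.28, 0.38 and -0.54 in the same order. SSR4, SSR2 and SSR3 span 4.98, 11.9 and 15.6 kb, and SSR1 79.1 kb. The part of span in the TRAP ratios was not tested. SSR4 (chrX:153793516-153798499) had 11.99 and 21.5 RPM in Post and Pre with RNA and DNA, and 23.9 and 17.4 RPM in Post and Pre with RNA only. Post, RNA and DNA held the lowest and Post, RNA only the highest of these, and Post over Pre was -0.70 (-1.09 to -0.42) with RNA and DNA and 0.87 (0.57 to 1.22) with RNA only. SSR2 had 23.0 and 36.2 RPM in Post and Pre with RNA and DNA, and 29.5 and 32.4 RPM in Post and Pre with RNA only, with -0.54 (-0.81 to -0.31) and 0.31 (0.03 to 0.57) for the same 2 ratios. SSR3 had 37.5 and 48.3 RPM in Post and Pre with RNA and DNA, and 42.1 and 41.9 RPM in Post and Pre with RNA only. SSR1 had 51.2 and 59.3 RPM in Post and Pre with RNA and DNA, and 50.6 and 60.8 RPM in Post and Pre with RNA only. SSR1, the longest of the 4 genes, had the ratio nearest to 0 in the RNA and DNA pair, at -0.11 (-0.29 to 0.06). As a share of all counts of the 59 genes, a measure that no scaling of the library changes, the TRAP genes held 4.15% (3.93 to 4.38) in Post and 4.85% (4.61 to 5.09) in Pre with RNA and DNA, and 5.50% (5.16 to 5.85) in Post and 4.71% (4.47 to 4.95) in Pre with RNA only (Clopper-Pearson 95% intervals). The order of Post and Pre was opposite in the 2 pairs, and in each the intervals did not overlap.

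Signal peptidase cuts off the signal peptide once the chain has entered the ER. Its accessory subunit gene SPCS1 (chr3:52704955-52711148) gave the highest ratio of all the genes described here, with 12.5 and 17.2 RPM in Post and Pre with RNA and DNA, and 27.9 and 13.0 RPM in Post and Pre with RNA only. The Post, RNA only library, with 178 counts against 122 in Pre, was far above the others, and Post over Pre there was 1.49 (1.20 to 1.89), or 2.80-fold relative to the typical gene, against -0.34 (-0.72 to -0.02) with RNA and DNA. RNA and DNA over RNA only was -1.48 (-1.88 to -1.20) in Post and 0.35 (0.02 to 0.73) in Pre. SPCS3, another accessory subunit, had 69.8 and 72.0 RPM in Post and Pre with RNA and DNA, and 69.7 and 64.9 RPM in Post and Pre with RNA only. It was nearly level in RPM, which relative to the typical gene is 0.54 (0.36 to 0.72) for Post over Pre with RNA only. The catalytic subunit SEC11A had 69.0 and 78.3 RPM in Post and Pre with RNA and DNA, and 57.6 and 79.6 RPM in Post and Pre with RNA only, at relative ratios between -0.12 and -0.02 in the 4 comparisons. SPCS2 gave -0.14 and 0.05 and the other catalytic subunit, SEC11C, 0.07 and 0.17 for Post over Pre with RNA and DNA and with RNA only.

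CANX, PDIA3, PDIA6 and CALR had the 4 highest mean levels of the 59 genes and PDIA2 (0.51 RPM) the lowest. None of the 6 folding genes above the limit was called, where 0.0605% to 7.63% of all genes were, depending on comparison and direction. With RNA only the median of the lectin chaperones for Post over Pre was 0.36, close to that of the TRAP genes. CANX and CALR encode calnexin and calreticulin, the lectins that hold newly glycosylated proteins. CANX had 241 and 262 RPM in Post and Pre with RNA and DNA, and 210.2 and 235 RPM in Post and Pre with RNA only. CALR had 144 and 158 RPM in Post and Pre with RNA and DNA, and 132 and 131 RPM in Post and Pre with RNA only. Post over Pre was close to the typical gene with RNA and DNA, at -0.03 (-0.11 to 0.05) for CANX and -0.04 (-0.15 to 0.06) for CALR, and above it with RNA only, at 0.28 (0.18 to 0.37) and 0.45 (0.32 to 0.58). PDIA3, the disulfide isomerase that works with these lectins, had 207 and 257 RPM in Post and Pre with RNA and DNA, and 203 and 244 RPM in Post and Pre with RNA only. Both Post libraries lay below both Pre libraries, at -0.22 (-0.30 to -0.13) and 0.18 (0.08 to 0.27) relative to the typical gene. PDIA6, an isomerase bound to BiP, had 159 and 189 RPM in Post and Pre with RNA and DNA, and 139 and 181 RPM in Post and Pre with RNA only. Its ratios lay between -0.19 and 0.06. PDIA4 had 96.6 and 94.97 RPM in Post and Pre with RNA and DNA, and 82.6 and 91.4 RPM in Post and Pre with RNA only. It had the highest Post over Pre ratios of the 4 isomerases above the limit, 0.12 (-0.02 to 0.25) with RNA and DNA and 0.29 (0.13 to 0.45) with RNA only. PDIA5 gave 0.05 and -0.08.

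**Figure D4:**
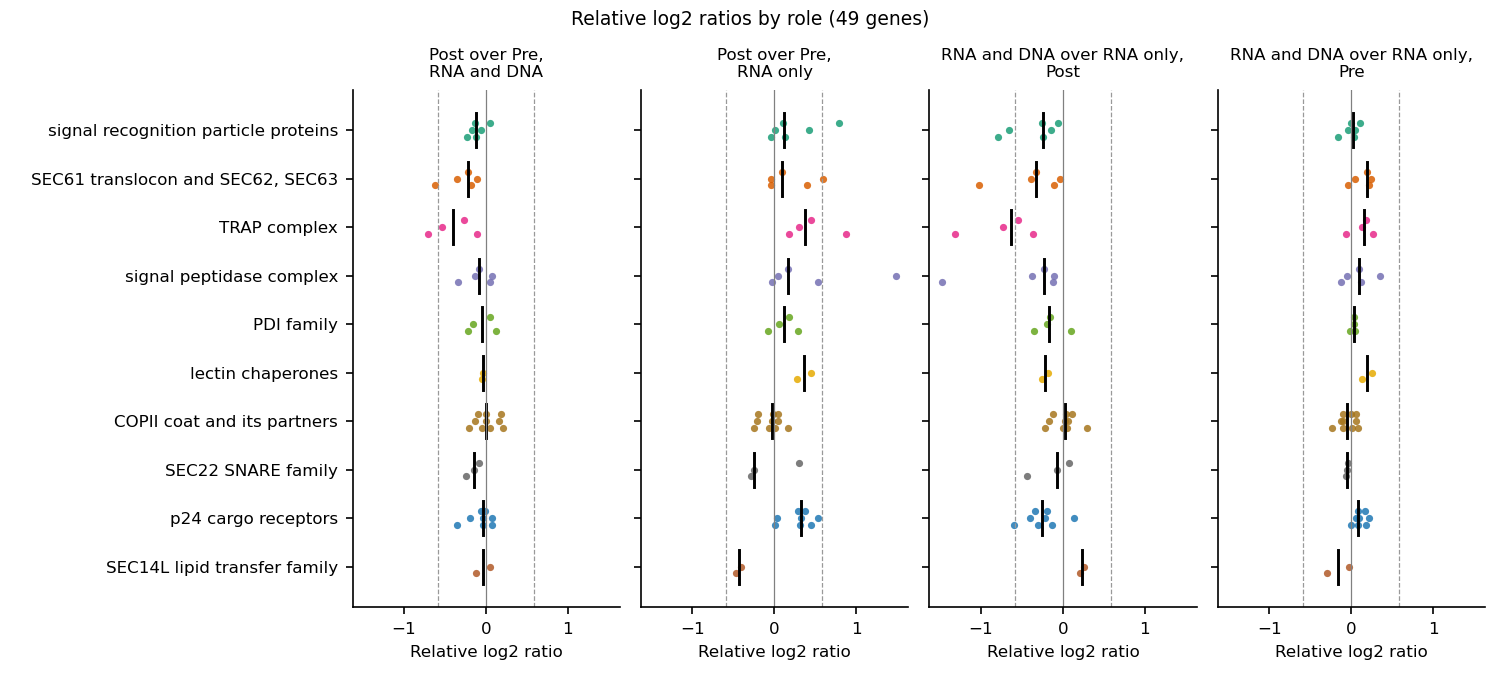
Relative log2 ratios of the 49 genes (points) by role in the 4 comparisons, with the median of each role as a black bar and dashed lines at 1.5-fold. The TRAP genes have a median of -0.40, 0.38 and -0.63 in the first 3 panels, while the COPII genes stay near 0 in all 4. The plotted COPII genes span 27.8 to 116 kb, and SSR2, SSR3 and SSR4 span 4.98 to 15.6 kb. Role and gene span were not told apart.

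The COPII coat genes stayed near the typical gene. Of 12 genes 10 were above the limit, and their medians were 0.00, -0.03, 0.03 and -0.05 in the order of the 4 comparisons above. None was called, where 0.0605% to 7.63% of all genes were, depending on comparison and direction. The absence of calls among 10 genes therefore says little. These 10 genes span 27.8 to 116 kb. All genes of 30 to 60 kb also had medians near 0, at -0.04, -0.03, -0.02 and -0.01 in the same order. The part of span in the COPII ratios was not tested. SEC24D, a cargo-binding inner coat subunit, had 138 and 148 RPM in Post and Pre with RNA and DNA, and 101 and 139.7 RPM in Post and Pre with RNA only. SEC31A, of the outer coat, had 118 and 146 RPM in Post and Pre with RNA and DNA, and 98.8 and 137 RPM in Post and Pre with RNA only. SEC24B, another cargo-binding subunit, had 102 and 109 RPM in Post and Pre with RNA and DNA, and 75.5 and 102 RPM in Post and Pre with RNA only. In RPM the Post, RNA only library was the lowest for each, but relative to the typical gene Post over Pre with RNA only was -0.02 (-0.16 to 0.11), -0.03 (-0.18 to 0.10) and 0.01 (-0.15 to 0.17) for these 3. SEC23B, the coat subunit that stimulates the GTPase, and SEC16A, the scaffold of ER exit sites, had the highest Post over Pre ratios with RNA and DNA of all 49, at 0.21 (-0.03 to 0.46) and 0.18 (0.02 to 0.35), followed by SEC24C at 0.16. With RNA only SEC24C was at -0.24, among the 5 lowest. As a share of the counts of all 59 genes, the COPII genes held 22.9% (22.4 to 23.4) in Post and 21.8% (21.3 to 22.3) in Pre with RNA and DNA, and 19.9% (19.3 to 20.5) in Post and 22.6% (22.1 to 23.1) in Pre with RNA only. Again the order of Post and Pre differed between the pairs, here opposite to that of the TRAP genes. Shares of 1 total depend on each other, so a rise in other roles lowers the COPII share. Relative to the typical gene, the summed COPII counts did not reverse. Their Post over Pre ratio was -0.03 (-0.08 to 0.02) with RNA and DNA and -0.03 (-0.09 to 0.03) with RNA only.

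The p24 receptors above the limit, 8 of 8, lay above the typical gene for Post over Pre with RNA only, as do 50% of all genes by construction. Their median was 0.32 and their range 0.00 to 0.53. None was called, where 5.26% of all genes were higher and 2.01% lower. With RNA and DNA their median was -0.03. TMED10, a partner in p24 complexes, had 49.7 and 55.2 RPM in Post and Pre with RNA and DNA, and 47.3 and 51.3 RPM in Post and Pre with RNA only. TMED2, another such partner, had 29.6 and 36.5 RPM in Post and Pre with RNA and DNA, and 34.5 and 34.4 RPM in Post and Pre with RNA only. The low value was in Post, RNA and DNA, and the gene was called lower there than in Post, RNA only at -0.59 (-0.85 to -0.34). TMED9 had 26.3 and 28.7 RPM in Post and Pre with RNA and DNA, and 25.6 and 23.99 RPM in Post and Pre with RNA only. It gave the highest ratio of the group with RNA only, 0.53 (0.23 to 0.83). TMED3 had 48.6 and 49.3 RPM in Post and Pre with RNA and DNA, and 33.6 and 45.7 RPM in Post and Pre with RNA only. It gave the lowest, 0.00 (-0.25 to 0.23). TMED8, named with this family, gave the lowest with RNA and DNA, -0.36 (-0.64 to -0.11), and TMED7 the highest, 0.08.

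The SEC22 genes gave a median of -0.15 for Post over Pre with RNA and DNA and -0.25 with RNA only. Among them SEC22B encodes a SNARE that acts in fusion of vesicles between ER and Golgi. SEC22C had 65.0 and 82.4 RPM in Post and Pre with RNA and DNA, and 52.1 and 84.7 RPM in Post and Pre with RNA only, or -0.24 (-0.40 to -0.09) and -0.25 (-0.45 to -0.07) as relative ratios. SEC22A had 28.6 and 34.0 RPM in Post and Pre with RNA and DNA, and 20.6 and 34.7 RPM in Post and Pre with RNA only, or -0.15 (-0.39 to 0.08) and -0.29 (-0.62 to -0.02). Both genes had both Post libraries below both Pre libraries. SEC22B had 17.3 and 19.8 RPM in Post and Pre with RNA and DNA, and 18.1 and 19.9 RPM in Post and Pre with RNA only. It lay on the other side with RNA only, at 0.30 (-0.05 to 0.64). The lowest Post over Pre ratios with RNA only belonged to the lipid-binding genes. SEC14L2 had 16.8 and 17.3 RPM in Post and Pre with RNA and DNA, and 10.8 and 21.1 RPM in Post and Pre with RNA only, which is -0.46 (-0.94 to -0.12) with RNA only. SEC14L1 had 69.8 and 80.8 RPM in Post and Pre with RNA and DNA, and 44.6 and 80.7 RPM in Post and Pre with RNA only, which is -0.40 (-0.62 to -0.22). Here too the low library was Post, RNA only, while with RNA and DNA both were near the typical gene (0.05 and -0.12). Neither reached 1.5-fold.

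In the RNA only comparison of Post with Pre the ratio varied with the span of the gene on the chromosome, which the choice by symbol did not use, and short genes had the higher ratios. Over the 49 genes, the relative log2 ratio of Post over Pre with RNA only and the log2 span had a Pearson r of -0.74 and a Spearman rho of -0.74, and -0.65 and -0.67 without the 4 genes called higher. Over 10236 genes of at least 10 RPM with an annotated span r was -0.33 and rho -0.32, and over 103 other ER and early secretory genes -0.30 and -0.34. The difference between these values was not tested. The length of the mature transcript tracked the ratio less in the 49 genes (r -0.30, rho -0.26). The 7 genes under 10 kb, CALR, SEC61B, SPCS1, SRP14, SSR4, TMED4 and TMED9, had a median of 0.59 and a range of 0.29 to 1.49, and 4 of them were called higher, as were 28.6% of all 925 genes under 10 kb. The 15 genes of 10 to 30 kb had a median of 0.30, the 16 of 30 to 60 kb 0.05 and the 11 of 60 kb and over -0.03, against 0.38, 0.09, -0.03 and -0.07 for all genes in the same 4 classes.

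For RNA and DNA over RNA only in Post, r with span was 0.69 and rho 0.66 over the 49 genes and 0.54 for both over all genes. The 7 genes under 10 kb had a median of -0.79, with 4 called lower, as were 45.7% of all genes of that class. Within the class CALR (-0.25) and TMED4 (-0.13) stayed far nearer to the typical gene than SSR4 (-1.31), which has a like span. For RNA and DNA over RNA only in Pre the sign was opposite. There r with span was -0.45 and rho -0.40 over the 49 genes, and -0.22 and -0.23 over all genes. With RNA and DNA, Post over Pre followed span less in the 49 genes (r 0.28, rho 0.14) than over all genes (r 0.49, rho 0.49), and the short genes split. SSR4 and SEC61B were called lower, where 14.7% of all genes under 10 kb were, and SPCS1 was at -0.34 (-0.72 to -0.02), while SRP14 (0.05), CALR (-0.04), TMED4 (-0.01) and TMED9 (-0.03) were near 0. These are correlations across genes of the same libraries, and the part of gene span, transcript length or depth in any single ratio was not tested.

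**Figure D5:**
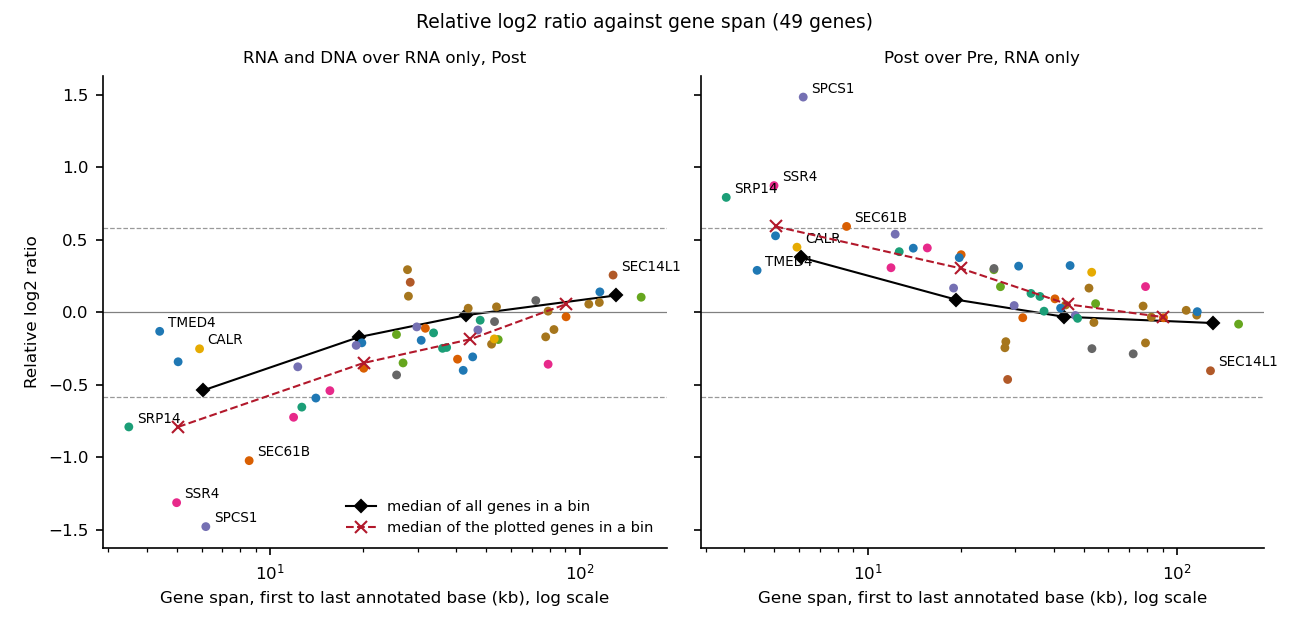
Relative log2 ratio of the 49 genes (points, coloured by role) against gene span on a log axis, for RNA and DNA over RNA only in Post (left) and Post over Pre with RNA only (right), with bin medians of these genes (red crosses) and of all genes (black diamonds) for spans under 10, 10 to 30, 30 to 60, and 60 kb and over. Genes under 10 kb have a median of -0.79 on the left and 0.59 on the right.

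Genes of the rest of the ER and early secretory pathway had medians near those of the 59 genes. Of 122 listed genes outside the set (other chaperones, glycosylation, insertion, degradation, unfolded protein response, and the remaining COPII and COPI genes) 103 reached 10 RPM, and their medians were -0.09 for Post over Pre with RNA and DNA, 0.16 with RNA only, -0.20 for RNA and DNA over RNA only in Post and 0.03 in Pre. The 12 pluripotent markers, which have no part in this pathway, had medians of -0.23, 0.11, -0.20 and 0.05 in the same order. The first lay further below 0 than that of the 49 genes above the limit (-0.10), and the rest were near theirs. Of the 103, 4 were called higher for Post over Pre with RNA only (3.88%, against 5.26% of all genes) and 11 lower for RNA and DNA over RNA only in Post (10.7%, against 7.63%). For Post over Pre with RNA and DNA 1 was lower (0.971%, against 2.02%), and no other call was made. The 2 most abundant chaperones, HSP90B1 and HSPA5 (the gene of BiP), gave 0.17 and -0.18 for Post over Pre with RNA only and -0.09 and -0.14 with RNA and DNA. In the same order the glycoprotein folding sensor UGGT2 gave -0.01 and 0.07, and STT3B, a catalytic subunit of oligosaccharyltransferase, 0.30 and 0.01. VCP, the ATPase that pulls proteins out of the ER for degradation, gave -0.07 and -0.46, and UBXN4, its partner on the ER membrane, -0.17 and -0.16. RRBP1, a ribosome-binding protein of the ER membrane, gave -0.22 and 0.07, and EMC3, of the membrane insertase EMC, -0.04 and -0.19. COPG2, a COPI coat subunit, gave -0.46 and -0.11, and ERGIC1, a protein of the compartment between ER and Golgi, -0.52 and 0.10. For RNA and DNA over RNA only in Post, ERGIC1 (0.47), RRBP1 (0.34) and COPG2 (0.29) lay above the typical gene, on the other side from the median of the 103, while UBXN4 (-0.01) and EMC3 (-0.03) were near 0. VCP (-0.28), STT3B (-0.23) and HSP90B1 (-0.14) lay on the same side as that median, and HSPA5 (0.09) and UGGT2 (0.06) slightly above 0.

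Of 13 genes of the unfolded protein response 10 reached 10 RPM. For RNA and DNA over RNA only in Post their median was -0.11, with 4 above the typical gene and 6 below. None was called higher and 2 were called lower, where 1.34% of all genes were higher and 7.63% lower. CREB3L2, an ER-bound transcription factor and the most abundant of them, had 72.7 and 78.01 RPM in Post and Pre with RNA and DNA, and 41.6 and 77.9 RPM in Post and Pre with RNA only. The Post, RNA only library was the low one, and the ratio for RNA and DNA over RNA only in Post was 0.41. ATF6, a membrane-bound sensor, gave 0.13 in that comparison. ERN1, the sensor IRE1, gave 0.54, from 141 counts in Post, RNA and DNA and 44 in Post, RNA only, and is named after its value was seen. The 2 genes called lower, XBP1 and ATF4, are likewise named after their values were seen. XBP1, a transcription factor of the response, had 20.4 and 32.5 RPM in Post and Pre with RNA and DNA, and 27.6 and 31.0 RPM in Post and Pre with RNA only. ATF4, another of its factors, had 41.2 and 61.5 RPM in Post and Pre with RNA and DNA, and 51.0 and 52.9 RPM in Post and Pre with RNA only. Both were lowest in Post, RNA and DNA, at -0.80 and -0.68 relative to Post, RNA only. HSPA5 was at 0.09 in that comparison. Of all genes under 10 kb, 45.7% were called lower there, and the part of gene span in the ratios of these 2 genes was not tested.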

How the data were processed

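RNA libraries of 4 conditions of fixed H9 nuclei were analysed, with 1 library per condition. The deposited files hold deduplicated counts per gene symbol and barcode. Per the labels and the study's methods, the authors assigned barcodes with Bowtie 1.3.1, trimmed reads with Trim Galore 0.6.10, aligned them to GRCh38 with STAR 2.7.11b, kept uniquely mapped reads and removed duplicates by position and molecular identifier, so reads shared between near-identical copies are lost. The gene annotation, the use of strand and the counting of intronic reads were not given in the sources used here. Each file has 1 barcode column for its own library, and the 60 others (15 per file) were not used.

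Counts were scaled to RPM in Python 3.11.15, and ratios were formed with a pseudocount of 1 RPM, centred on the median of the 11564 genes averaging 10 RPM or more, and called at 1.5-fold. Intervals are exact 95% intervals for counting error and cover no spread between cultures. As alternatives, no centring, no filter, a 1 RPM filter, a 2-fold call, a pseudocount of 5 RPM, TMM (edgeR 4.0.16) and median-of-ratios (DESeq2 1.42.0) scaling, and additive models in both tools were run, with adjusted p-values by Benjamini-Hochberg. The calculations were tested on simulated data. Spans and transcript lengths (Ensembl canonical) came from GENCODE release 44. The rule for the 59 genes reads symbols only, but it and the lists were chosen with earlier results of these data known. Genes were named when past 1.5-fold in 1 direction in both Post over Pre pairs or both pairs of RNA and DNA over RNA only. They were also named when among the 5 highest or lowest ratios of a comparison, the 3 most abundant of a role or the 2 most abundant of another list. SRP54, SEC61A2, SEC61G and PDIA5 met none of these and were named as further members of their roles. Others are named for their sequence, place or level, or as marked. The study's single-cell and chromatin data were not analysed here, and protein features were not examined.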

Additional observations from a re-analysis of the deposited data

Results flagged for a closer look

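The Post over Pre ratio differed in sign between the 2 pairs of libraries for 2 genes past 1.5-fold, and with 1 library on each side this difference was not tested. SEC61B had 13.3 and 22.4 RPM in Post and Pre with RNA and DNA, and 21.4 and 19.1 RPM in Post and Pre with RNA only, so that its relative log2 ratio with RNA only minus that with RNA and DNA was 1.21. SSR4 had 11.99 and 21.5 RPM in Post and Pre with RNA and DNA, and 23.9 and 17.4 RPM in Post and Pre with RNA only, and the same difference was 1.58. The median over the 49 genes differed by 0.21 in the same direction, and this too was not tested. In the barcode columns that no label assigns to a library, the 59 genes had 173 counts in all, 68 in the Post, RNA and DNA file, 39 in the Pre, RNA and DNA file, 45 in the Post, RNA only file and 21 in the Pre, RNA only file, against 16913 or more in each library's own column.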

How the results depend on the processing

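The median of the genes for Post over Pre with RNA and DNA was -0.10, and -0.19 without centring, -0.17 without a filter and -0.16 with median-of-ratios factors. With RNA only it was 0.11, and -0.33 without centring, -0.065 without a filter and 0.061 with median-of-ratios factors. For RNA and DNA over RNA only in Post it was -0.19, and 0.19 without centring, -0.060 without a filter and -0.15 with a pseudocount of 5 RPM. Without centring, the number higher in Post with RNA only was 1 and lower 7 (4 and 0 with centring), and with RNA and DNA against RNA only in Post 2 were higher and 3 lower (0 and 7). At 2-fold, 0 were lower in the first comparison (2 at 1.5-fold), 1 higher with RNA only and 3 lower in the Post comparison of RNA and DNA with RNA only. With a 1 RPM filter 1 gene, SEC14L6, was higher with RNA and DNA in Pre. Leaving the 20 most abundant genes out of the totals gave shares of 0.366% in Post and 0.393% in Pre with RNA and DNA, and 0.421% in Post and 0.380% in Pre with RNA only. Leaving out the centring shifts every ratio by the typical gene's ratio. Leaving out the filter also moved the centre to the median of all 33640 genes, which lay at 0.08, 0.22 and -0.13 on the relative scale in these 3 comparisons. With the centre kept, the medians of all 59 genes were -0.09, 0.15 and -0.19, so that the moves without a filter came mainly from the centre. The cause of the other changes was not tested. TMM scaling and totals without the FP236383 and FP671120 genes (chosen after seeing the data) kept every median and count they were run on within the same limits. Protein features were not run, and leaving out a library was not run, since it removes the comparisons that library enters. No paired analysis was possible because the conditions share fewer than 2 replicate numbers, though the additive models compare each factor within the levels of the other. SEC11C, near 10 RPM, had 58 to 105 counts per library, which limits what its ratios can show.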
